A study of Sus scrofa domesticus with 6 samples.

Results

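Genes of the Notch pathway were compared between the mandibular condyles of miniature pig embryos of 45 and 85 days. The set was fixed as 10 names: the receptors NOTCH1, NOTCH2, NOTCH3 and NOTCH4, the ligands DLL1, DLL4, JAG1 and JAG2, and the target genes HEY1 and HES1. A member was any row of the deposited table that carries one of these names, and 8 of the 10 were found among its 25322 gene rows. No row carried the names NOTCH1 or NOTCH2. An unnamed row could be assigned to NOTCH2 through its gene ID and is described beside the members, whereas NOTCH1 was matched by neither route and was not analysed here.

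The condyle is the cartilage-capped end of the lower jaw at the temporomandibular joint, and the series follows its ossification. Each age is represented by 3 bulk libraries of rRNA-depleted RNA from ground tissue, labelled as cartilage with chondrocytes and osteocytes as its source, with no treatment or genotype that differs between the ages. The labels do not give the number of embryos behind a library, so p-values measure only the spread between these libraries. Total counts ran from 12546729 to 16559616 per library.

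Notch receptors are transmembrane proteins that are activated by ligands of the Delta-like and Jagged families on neighbouring cells. Ligand binding exposes the receptor to ADAM proteases and then to γ-secretase, and the freed intracellular domain enters the nucleus, binds RBPJ and Mastermind-like coactivators, and switches on repressor genes of the HES and HEY families. In growing vessels DLL4 and NOTCH4 are characteristic of endothelium and NOTCH3 of the mural cells around it. In skeletal tissue Notch signalling is known to hold back progenitor differentiation and to restrain the chondrocyte programme.

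DLL4 and NOTCH4 rose between day 45 and day 85, and these were the 2 of 8 members called, at an adjusted p under 0.05 in edgeR's quasi-likelihood test over all genes. Over the 15022 genes tested, 6.56% were called in either direction, 3.90% as higher and 2.66% as lower. None of the members was called lower. All 8 members passed the filter on low counts. Log2 ratios are of day 85 over day 45 and are given ± SE from that fit, and levels are TMM-normalised counts per library total (CPM), listed in the order of replicates 1, 2 and 3. The members' median log2 ratio was 0.76, against 0.02 over all genes tested, and 6 of the 8 values were positive. The members, like the gene lists used below, were chosen with earlier results of these data known. Comparing them with all genes is therefore a description only. In 4 members, DLL4, NOTCH4, JAG1 and JAG2, every day 85 library lay above every day 45 library, a pattern shown upward by 17.4% and downward by 17.6% of all genes tested. DLL1, NOTCH3, HEY1 and HES1 overlapped between the ages.

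**Figure D1:**
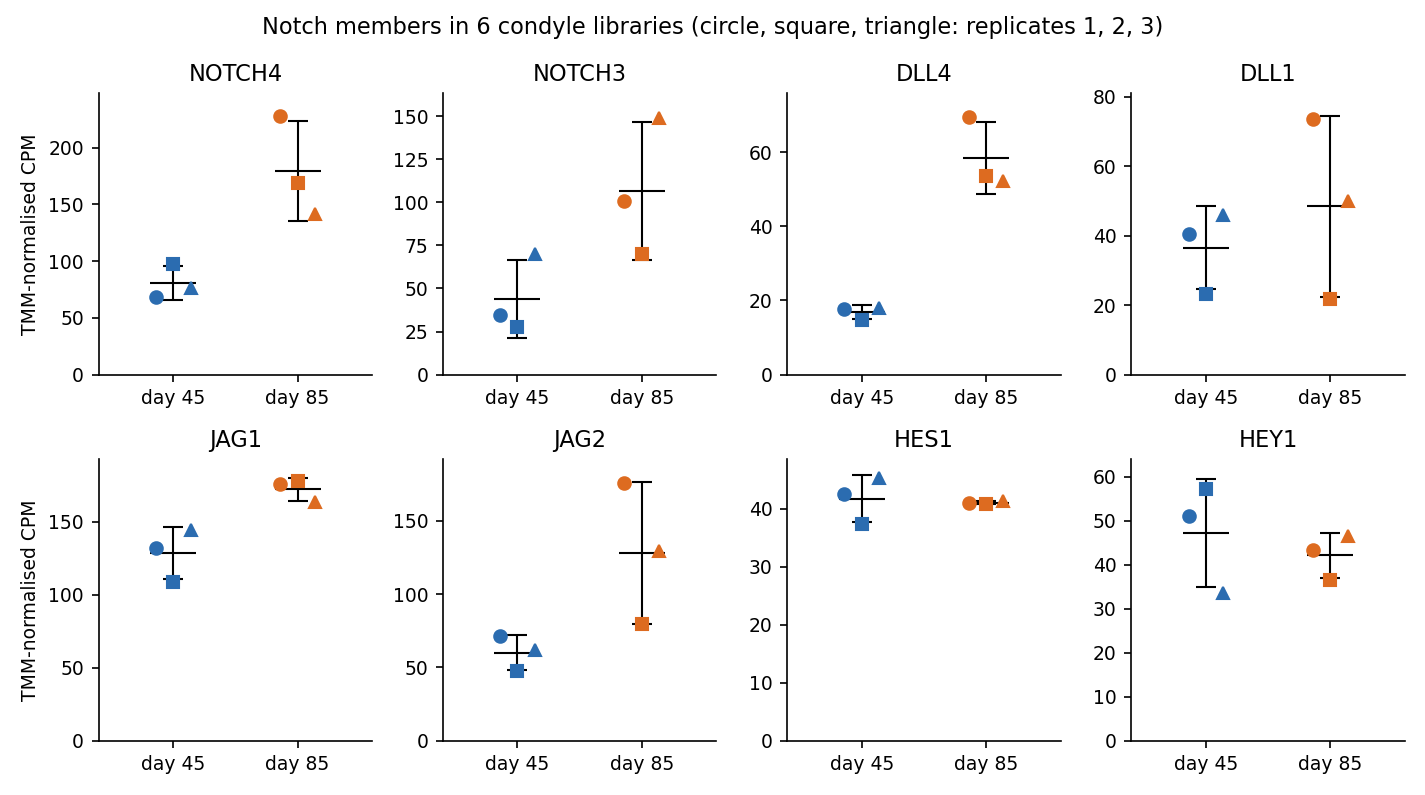
Each panel plots 1 of the 8 members, with CPM on a linear axis from 0 and the ages on the x axis; points are libraries, the long bar is the mean and the whiskers are ± 1 SD (n = 3). The day 85 libraries of DLL4 sit between 52.1 and 69.4 CPM, above the 14.6 to 17.9 CPM of day 45, whereas those of HES1 sit between 40.7 and 41.3 CPM, inside the day 45 range.

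The libraries were not equal in make-up. The second principal component of all genes, with 26.6% of the variance, set day 85 replicate 2 (-76.7) apart from day 85 replicates 1 and 3 (20.4 and 20.5). That library had the lowest level of skeletal muscle markers and the highest of Schwann cell and osteoclast markers. Markers of chondrocytes, the labelled source, summed to between 15230 and 19090 CPM in the younger condyles and to 1923, 6759 and 3646 CPM in the older ones. Calls in this series rest on few libraries. Without day 85 replicate 2, edgeR called 12.3% of 15271 genes higher and 4 of the 8 members (DLL4, NOTCH4, JAG2 and NOTCH3), whereas leaving out any other library left at most 118 genes and 1 member called. DESeq2, run on all 6 libraries, called 12.2% of the genes with an adjusted p as higher, and 5 members, JAG1 among them.

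Among the ligands, DLL4, the Delta-like ligand of sprouting endothelium, showed the largest rise of any member. Its level was 17.8, 14.6 and 17.9 CPM in the younger condyles and 69.4, 53.7 and 52.1 CPM in the older ones. The lowest day 85 library therefore stood well above the highest of day 45, and the libraries of each age lay close together. The fitted difference was 3.47-fold (log2 ratio 1.80 ± 0.17, adjusted p = 0.0155). The size of the rise did not hinge on a single library, with log2 ratios from 1.63 to 1.87 when each was left out. The call was lost when day 45 replicate 1, 2 or 3 was left out (adjusted p = 0.106, 0.0762 and 0.0518). It was kept without each day 85 library (0.0440, 0.00189 and 0.0424). Over all genes, edgeR called 4, 0 and 20 genes without day 45 replicate 1, 2 or 3.

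JAG2, a Jagged-family ligand, stood at 71.1, 47.2 and 62.1 CPM in the younger condyles and at 176, 79.3 and 129 CPM in the older ones. The ages did not overlap, but day 85 replicate 2 lay much nearer to day 45 than the other day 85 libraries did. The log2 ratio was 1.09 ± 0.30, and JAG2 did not pass (adjusted p = 0.0779). It passed without day 85 replicate 2, at a log2 ratio of 1.34 (adjusted p = 0.00840), and in DESeq2 on all libraries (adjusted p = 0.00186). The row assigned to JAG2 spans 131225912 to 131334309 on chromosome 7 of the deposited coordinates and overlaps the rows of NUDT14, CDCA4 and GPR132, so reads in the shared stretches could be assigned to either gene.

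JAG1, the Jagged ligand that many skeletal and vascular cells carry, differed little between the libraries of day 85. It was at 132, 109 and 144 CPM in the younger condyles and at 176, 178 and 163 CPM in the older ones. All 3 day 85 libraries lay above those of day 45, by a modest margin. The fitted difference was 1.34-fold (log2 ratio 0.42 ± 0.14) and was not called in edgeR (adjusted p = 0.104), while DESeq2 called it (adjusted p = 0.0143).

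DLL1, the Delta-like ligand best known from somite and muscle progenitor patterning, varied more between libraries of one age than between the ages. Its levels were 40.6, 23.1 and 46.0 CPM in the younger condyles and 73.6, 21.7 and 50.0 CPM in the older ones. Day 85 replicate 2 was the lowest of all 6 libraries and day 85 replicate 1 the highest. The log2 ratio was 0.40 ± 0.47 (adjusted p = 0.602), and it turned to -0.043 without day 85 replicate 1. Skeletal muscle markers moved across the day 85 libraries in the same order as DLL1 and JAG2. So did the summed endothelial markers, at 2024, 1344 and 1514 CPM in day 85 replicates 1, 2 and 3. The 7 muscle markers found of 10 listed, among them ACTA1, summed to 23940, 1876 and 21410 CPM in day 85 replicates 1, 2 and 3 and to 5995, 3092 and 6954 CPM at day 45. The part of muscle or endothelium in the levels of DLL1 and JAG2 was not tested.

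To compare the ligands with one another, their levels were taken per transcript length, as the deposited FPKM. The 4 ligands summed to 47.9 ± 10.8 FPKM at day 45 and 84.0 ± 24.3 FPKM at day 85 (SD, n = 3). DLL4 made up 9.95%, 11.4% and 9.79% of that sum in the younger condyles and 18.9%, 23.8% and 18.3% in the older ones. The DLL4 share was thus higher in all 3 day 85 libraries. JAG1 held the largest share at day 45, with 39.1% ± 2.75, and had 30.3% ± 7.81 at day 85. The JAG2 share was 29.5% ± 2.34 and 34.3% ± 5.40, and the DLL1 share 21.1% ± 3.49 and 15.1% ± 5.24, with libraries of the ages overlapping for all 3 of these ligands. Shares within a sum move together, so a higher share of DLL4 lowers the others at equal levels.

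**Figure D2:**
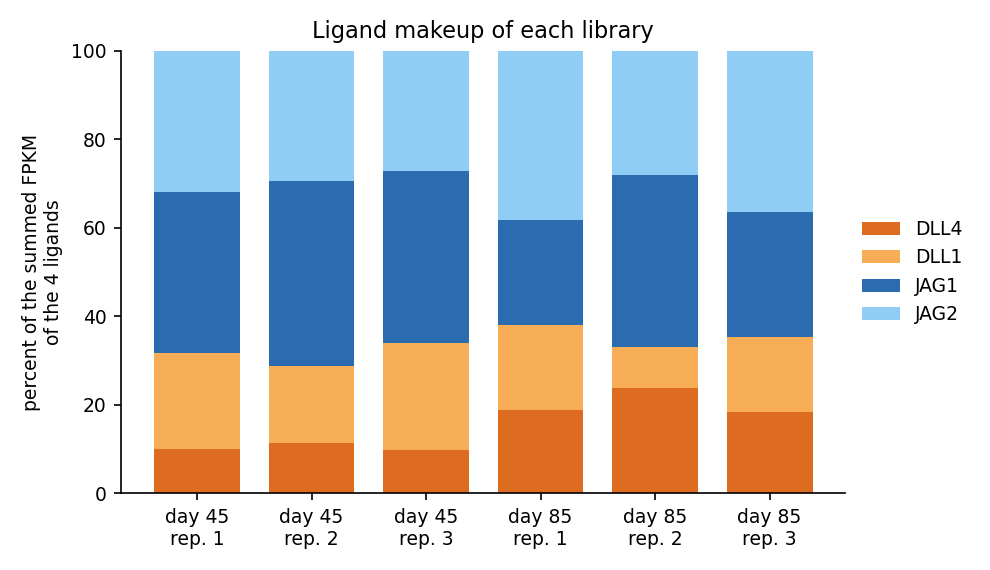
Stacked bars give, for each of the 6 libraries on the x axis, the percent of the summed FPKM of the 4 ligands that each ligand holds, from 0 to 100. The DLL4 segment at the bottom is 9.79% to 11.4% at day 45 and 18.3% to 23.8% at day 85.

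Among the receptors, NOTCH4, the Notch receptor largely restricted to endothelium, rose. Its level was 68.0, 97.5 and 76.4 CPM in the younger condyles and 228, 169 and 141 CPM in the older ones. Even the lowest day 85 library exceeded the highest of day 45, and day 85 replicate 1 was the highest of all. The fitted difference was 2.23-fold (log2 ratio 1.15 ± 0.22, adjusted p = 0.0372). The log2 ratio stayed between 0.92 and 1.31 when each library was left out. The call was kept without day 85 replicate 2 (adjusted p = 0.0167) but lost without any of the day 45 replicates (0.161, 0.0999 and 0.102) and when day 85 replicate 1 or 3 was left out (0.0742 and 0.0590).

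NOTCH3, the receptor that mural cells use, is held by 2 rows of the table that gave different answers. The row named NOTCH3 had 34.5, 27.8 and 70.0 CPM in the younger condyles and 101, 69.9 and 149 CPM in the older ones. Day 45 replicate 3 and day 85 replicate 2 were nearly equal, so the ages just overlapped. Its log2 ratio was 1.27 ± 0.43 (adjusted p = 0.121), and it passed without day 85 replicate 2 (log2 ratio 1.50, adjusted p = 0.0480) and in DESeq2 (adjusted p = 0.00503). An unnamed row whose ID is that of NOTCH3 in a table of IDs and symbols had more reads, at 139, 132 and 208 CPM in the younger condyles and 254, 146 and 192 CPM in the older ones. There the ages overlapped widely, with a log2 ratio of 0.30 ± 0.26 (adjusted p = 0.466). With the counts of both rows summed, a choice made after their values were seen, the log2 ratio was 0.58 ± 0.28 (adjusted p = 0.224).

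The positions of these rows bear on which values to read. In the deposited coordinates, for which no source used here names the build, the named row lies on chromosome 2 at 61892253 to 61908778. The second row lies 39850 bases further on, at 61948629 to 61963162, beyond the row of EPHX3. In the RefSeq annotation of Sscrofa11.1, by contrast, NOTCH3 is a single gene next to EPHX3. Per length, the second row stood 5.50 to 8.80 times above the named row in the day 45 libraries and 2.39 to 4.68 times above it at day 85. Which row follows the NOTCH3 transcript more closely was not tested.

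**Figure D3:**
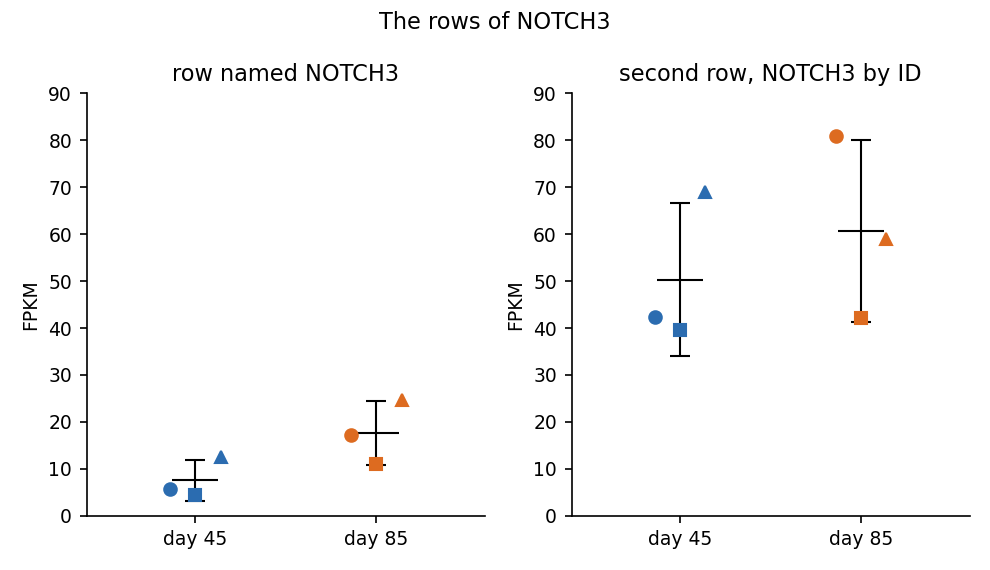
The panels plot FPKM (y axis from 0, the same scale in both) at day 45 and day 85 for the row named NOTCH3 on the left and for the second row on the right; points are libraries (circle, square and triangle for replicates 1, 2 and 3), with the mean and ± 1 SD (n = 3). The named row averaged 7.57 and 17.6 FPKM and the second row 50.3 and 60.7 FPKM.

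The NOTCH2 row, matched by ID only, gave no call. NOTCH2 is a broadly expressed receptor with a known role in skeletal progenitors and in osteoclasts. It was at 197, 228 and 225 CPM in the younger condyles and 136, 227 and 194 CPM in the older ones. Day 85 replicate 2 matched day 45, and day 85 replicate 1 was the lowest of the 6. The log2 ratio was -0.22 ± 0.20 (adjusted p = 0.485).

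Neither target gene among the members was called. HES1, the bHLH repressor that Notch induces in many cell types, was at 42.6, 37.4 and 45.3 CPM in the younger condyles and 41.1, 40.7 and 41.3 CPM in the older ones. The 3 day 85 libraries were within 1 CPM of each other although their cell type markers differed, and all lay inside the day 45 range. Its log2 ratio was -0.02 ± 0.12 (adjusted p = 0.908). HEY1, the related repressor of arterial endothelium and of skeletal cells, was at 50.9, 57.3 and 33.6 CPM in the younger condyles and 43.4, 36.5 and 46.5 CPM in the older ones. The day 85 values again lay within the day 45 range (log2 ratio -0.17 ± 0.22, adjusted p = 0.638).

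Ordered by FPKM, which allows genes to be compared with each other, the second NOTCH3 row stood highest at day 45 with 50.3 ± 16.3 FPKM and DLL4 lowest with 4.91 ± 0.751 FPKM. Between them, in falling order, came HES1 (27.5 ± 4.09 FPKM), NOTCH2, JAG1, HEY1, JAG2, NOTCH4, DLL1 and the named NOTCH3 row. Neighbours did not overlap at the step from the second NOTCH3 row (lowest library 39.5 FPKM) to HES1 (highest library 31.7 FPKM) and at that from NOTCH2 (lowest 23.0 FPKM) to JAG1 (highest 22.1 FPKM). At day 85 the order was the second NOTCH3 row (60.7 ± 19.4 FPKM), JAG2 (29.6 ± 12.4 FPKM), HES1 (26.4 ± 1.40), NOTCH4 (25.2 ± 7.15), JAG1 (24.2 ± 1.43), NOTCH2, the named NOTCH3 row, DLL4 (16.7 ± 3.45), HEY1 and DLL1 (13.5 ± 7.72), and neighbours overlapped at every step but the first, where the lowest library of the second NOTCH3 row (42.2 FPKM) was just above the highest of JAG2 (42.0 FPKM). Members further apart in that order could be separate, as every HES1 library (24.8 to 27.6 FPKM) lay above every DLL4 library (14.5 to 20.7 FPKM).

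Endothelial markers rose in the same libraries as DLL4 and NOTCH4. Of 17 markers listed, 14 were found, 9 were called higher and none lower, with a median log2 ratio of 1.41. They summed to 629, 515 and 787 CPM in the younger condyles and to 2024, 1344 and 1514 CPM in the older ones. PECAM1, a junction protein of endothelium, went from 137, 94.6 and 195 CPM to 575, 349 and 423 CPM. Of 7 arterial and tip cell markers, only the arterial ephrin EFNB2 was called higher (log2 ratio 1.44 ± 0.22, adjusted p = 0.0247), and none was called lower. Of 12 mural markers, 11 were tested, 2 were called higher and 1 lower. In bulk tissue, more cells of a type and more RNA per cell cannot be told apart.

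Each member was therefore also expressed relative to these markers, as its log2 level minus the mean log2 level of a list in the same library. On this scale the endothelial list itself rose by 1.38 and the mural list by 0.65. The fitted log2 ratios of single endothelial markers ran from -0.23 to 2.68, a range that holds the 1.80 of DLL4. DLL4 was the only member that was higher relative to endothelial markers in every day 85 library, with -0.57, -0.36 and -0.75 at day 45 and -0.24, -0.10 and -0.21 at day 85, a difference of 0.38. NOTCH4 overlapped between the ages on this scale, at 1.66 ± 0.58 and 1.41 ± 0.17 (SD, difference -0.25). So did the named NOTCH3 row (difference -0.07) and JAG2 (-0.35). The second NOTCH3 row was not set against either list. For the other members every day 85 library lay below every day 45 library on this scale, with differences of -0.95 for JAG1, -1.09 for DLL1, -1.40 for HES1, -1.52 for HEY1 and -1.64 for the NOTCH2 row. Relative to mural markers, the ages did not overlap for DLL4 (1.11), HES1 (-0.67) and the NOTCH2 row (-0.90), while the named NOTCH3 row had a difference of 0.66 with overlapping ages. These mural values depended on how the list was summarised: against the summed CPM of the mural markers, DLL4 (1.51), JAG2 (0.78) and the named NOTCH3 row (1.06) were apart, whereas HES1 (-0.27) and the NOTCH2 row (-0.50) overlapped. A two-sided exact permutation test of 3 against 3 libraries cannot go below p = 0.1, which 9 of the 18 comparisons reached (Benjamini-Hochberg adjusted p = 0.200). The rise of the list is subtracted from every member, so a member that did not change between the ages comes out lower on this scale. The share of all genes that would do the same was not computed. Whether the count of 9 is particular to Notch genes therefore cannot be said.

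**Figure D4:**
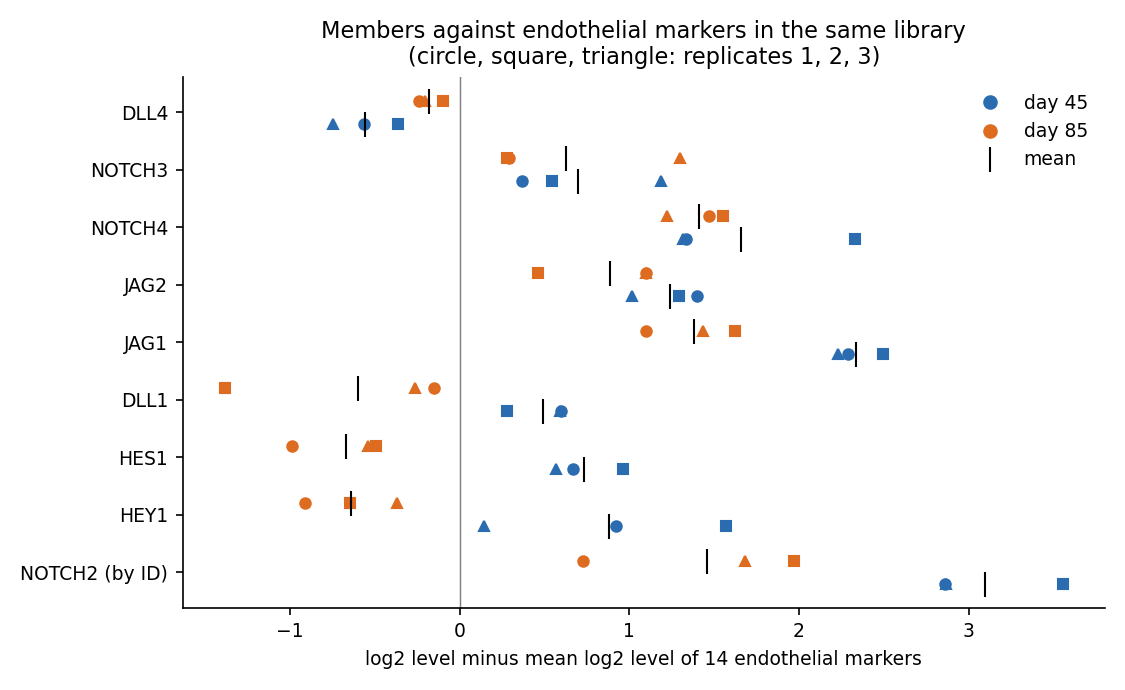
For each member on the y axis, the x axis gives its log2 level minus the mean log2 level of 14 endothelial markers in the same library; blue points are day 45, orange points day 85, and black ticks the means. DLL4 shifts right between the ages (difference 0.38), and NOTCH4 and the named NOTCH3 row overlap. HES1, HEY1 and NOTCH2 shift left by 1.40, 1.52 and 1.64.

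The rest of the pathway was read from 63 further genes, of which 59 were found and 57 tested. edgeR called 5 of them higher, against the 3.90% of all genes, and none lower, and their median log2 ratio was 0.19. With no adjustment, 13 of the 57 had a p under 0.05 upward and 4 downward, against 2370 and 1997 of all 15022 genes tested. The 5 called genes came from 5 different roles. Without day 85 replicate 2, 9 were called higher and 2 lower, where 12.3% of all genes tested in that fit were called higher. Without each of the other libraries 0 or 1 was called.

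Among the other ligand-like genes, 1 of 6 tested was called higher, and 3 of the 6 log2 ratios were positive. EGFL7, a secreted endothelial protein that binds Notch receptors, went from 171, 180 and 161 CPM to 351, 290 and 248 CPM, without overlap (log2 ratio 0.79 ± 0.15, adjusted p = 0.0377). MFAP2, a microfibril protein reported to interact with Notch ligands and receptors, was the most abundant of this group. It stood at 398, 673 and 370 CPM in the younger condyles and 136, 254 and 223 CPM in the older ones. The log2 ratio was -1.23 ± 0.32, just outside the threshold (adjusted p = 0.0665).

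Of 11 tested genes that mature and cleave the receptor, only PSEN2 was called higher. PSEN2 encodes presenilin 2, a catalytic subunit of γ-secretase, and stood at 37.7, 29.9 and 46.5 CPM in the younger condyles and 134, 94.2 and 108 CPM in the older ones (log2 ratio 1.56 ± 0.21, adjusted p = 0.0200). All day 85 libraries lay above those of day 45. The γ-secretase subunits NCSTN, or nicastrin, and APH1A were not called, with log2 ratios of 0.19 ± 0.12 (adjusted p = 0.333) and -0.04 ± 0.12 (0.864). LFNG, a Fringe glycosyltransferase that alters which ligands a receptor answers to, ran from 63.3 to 71.7 CPM over all 6 libraries (adjusted p = 0.971).

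Of 14 genes of ubiquitination and endocytosis, only NEURL1B, a ubiquitin ligase of Notch ligands, was called higher. It rose from the low levels of 2.1, 1.2 and 2.4 CPM to 7.3, 4.9 and 7.5 CPM (log2 ratio 1.76 ± 0.32, adjusted p = 0.0352). MIB2, the most abundant of the 14 and likewise a ligase of the ligands, had a log2 ratio of 0.07 ± 0.17 (adjusted p = 0.805). NUMBL, a relative of the Notch antagonist NUMB, had -0.22 ± 0.17 (adjusted p = 0.427).

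Of 14 genes of the nuclear complex, only the histone acetyltransferase KAT2B was called higher. It rose from 8.9, 9.4 and 11.0 CPM to 35.0, 19.5 and 33.7 CPM (log2 ratio 1.58 ± 0.25, adjusted p = 0.0259). RBPJ, the DNA-binding partner of the cleaved receptor, lay lower in all 3 day 85 libraries, at 93.6, 121 and 90.4 CPM and then 81.8, 68.8 and 78.5 CPM, and was not called (log2 ratio -0.41 ± 0.15, adjusted p = 0.135). CIR1, a corepressor that binds RBPJ, had a log2 ratio of 0.27 ± 0.18 (adjusted p = 0.360), and the coactivator MAML1 0.04 ± 0.10 (0.821).

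Of 12 further targets and their corepressors tested, only BHLHE40, a bHLH repressor that also answers to hypoxia and the circadian clock, was called higher. It rose from 39.7, 43.1 and 39.8 CPM to 108, 122 and 115 CPM (log2 ratio 1.49 ± 0.11, adjusted p = 0.00811). Its call held without day 45 replicate 3 and without each day 85 library, and was lost without day 45 replicates 1 and 2, with an adjusted p of at most 0.0761. The other 4 called pathway genes passed only without day 85 replicate 2 when libraries were left out. TLE2, a Groucho-type corepressor, was at 164, 256 and 128 CPM and then 61.2, 92.8 and 118 CPM (log2 ratio -1.01 ± 0.33, adjusted p = 0.108). The vascular HES and HEY relatives were not called. HEY2 was at 15.2, 11.9 and 14.5 CPM and then 28.8, 58.0 and 19.6 CPM (log2 ratio 1.35 ± 0.40, adjusted p = 0.0878), highest in day 85 replicate 2. NRARP, a feedback inhibitor that Notch induces, was low, at 2.5, 1.4 and 2.7 CPM and then 3.6, 4.8 and 4.0 CPM (log2 ratio 0.92 ± 0.31, adjusted p = 0.115). HEYL, a target typical of mural cells, had a log2 ratio of 0.27 ± 0.42 (adjusted p = 0.701).

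**Figure D5:**
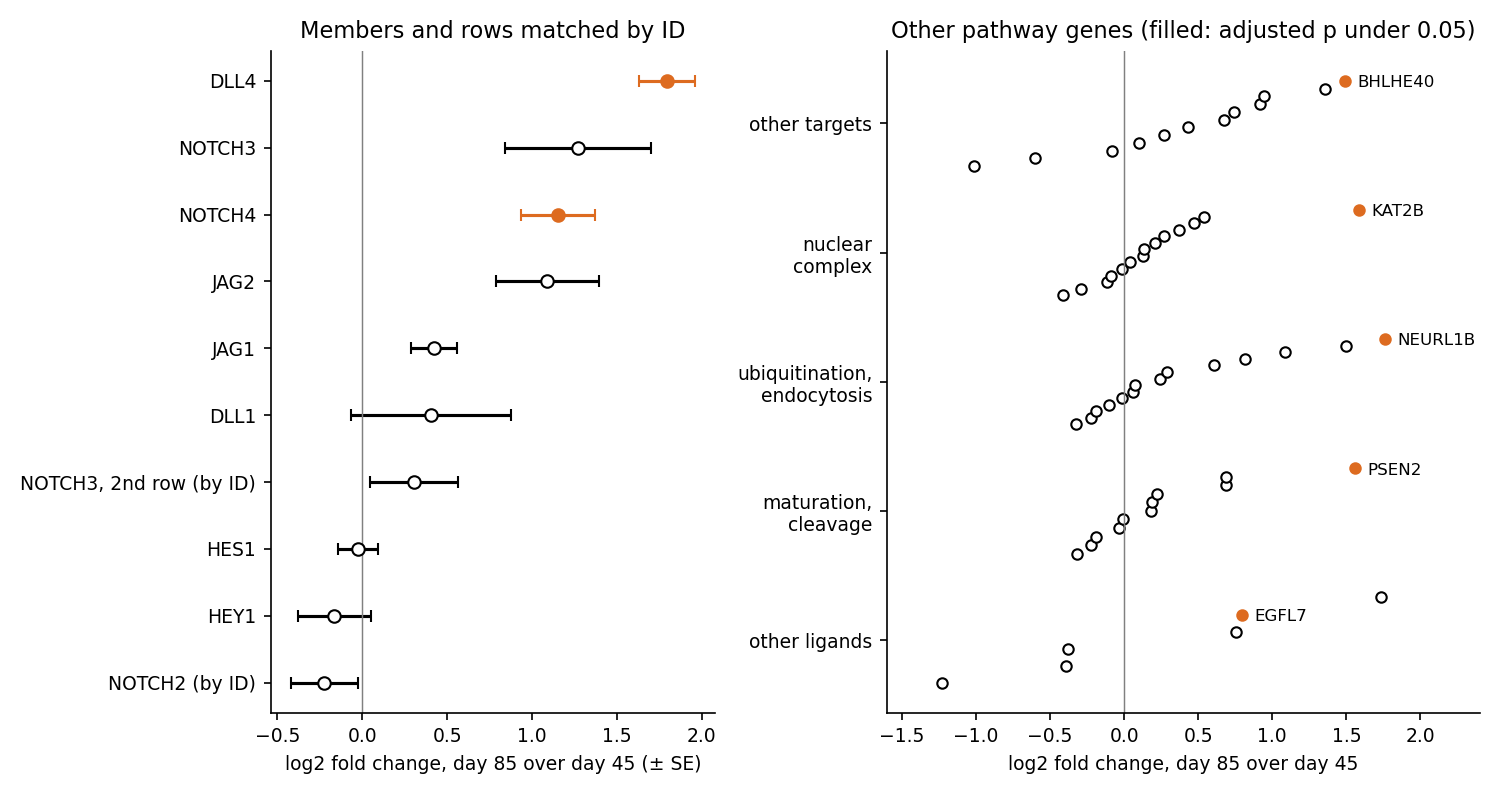
Left, log2 ratios of day 85 over day 45 with ± 1 SE for the 8 members and the 2 rows matched by ID; right, log2 ratios of the 57 other pathway genes tested, grouped by role on the y axis. Filled orange points passed an adjusted p of 0.05: DLL4 and NOTCH4 on the left, and BHLHE40, KAT2B, NEURL1B, PSEN2 and EGFL7 on the right.

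For each receptor, the named genes of at least 10 CPM with the most similar profile over the 6 libraries were taken by Pearson's r of log2 levels, from 8218 candidates. They included PER2 (r = 0.996) and TFPI2 (0.989) for NOTCH4, UBE2W (0.991), QKI (0.984) and OTUD4 (0.984) for the named NOTCH3 row, and ENO2 (0.994), UHRF1BP1L (0.993) and ADAMTS4 (0.991) for the NOTCH2 row. The 6 libraries fall into 2 age groups, and these values are given as a description only. PER2, a circadian clock gene, stood at 16.0, 20.6 and 17.0 CPM and then 31.3, 27.3 and 25.1 CPM, repeating the order of the NOTCH4 libraries.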

How the data were processed

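RNA from 6 bulk condyle libraries, 3 at day 45 and 3 at day 85, was measured by sequencing. The authors deposited whole-number read counts per gene and FPKM values in 1 table, per the file headers. The submitters' processing notes name HISAT2 as a tool; the counting program, strand setting, build and annotation were not given in the sources used here. For 11224 genes with at least 40 counts in every library, the deposited FPKM equalled the count over the library total and a constant per gene, within 0.00205%.

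Deposited counts were tested over all genes with edgeR 4.0.16 in R 4.3.3: filterByExpr with a minimum count of 10, TMM scaling, robust quasi-likelihood F test, age as the only factor, Benjamini-Hochberg adjustment. The SE is the log2 fold change over the square root of F. CPM are TMM-normalised, and values relative to markers use log2(CPM + 0.5). The fit was also run on simulated counts with the same variability for every gene and no outlying library. That setting differs from these libraries, so the run does not measure how well the fit did here. Total counts of 12546729 to 16559616 make 1 count worth less than 0.1 CPM.

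For each name the deposited row with the highest summed count was used. For other genes, unnamed rows took a symbol from a table of gene IDs, which named 1774 rows. The text names all members, called pathway genes, the 2 most abundant genes of each role and, for marker lists, up to 4 abundant markers; RBPJ, MAML1, LFNG, HEY2, HEYL, NRARP and EFNB2 were added after their values were seen. Some genes under these rules are not reported here. The members and lists were chosen with earlier results of these data known. Alternatives were scaling by RLE, upper quartile or library totals, testing all genes or those of 1 CPM in 3 libraries, limma 3.58.1 (voom on counts, trend on log2 FPKM), DESeq2 1.42.0, a replicate block, summed rows of a name, and leaving out each library. For values relative to markers they were a pseudocount of 1 CPM, library totals, summed marker CPM and leaving out each library.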

Additional observations from a re-analysis of the deposited data

How the results depend on the processing

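The 8 members gave 2 calls under the main settings and under 10 of the 12 alternatives that keep all libraries, including both NOTCH3 rows summed, an alternative chosen after seeing the data. DESeq2 gave 5 (DLL4, NOTCH4, JAG2, JAG1 and NOTCH3). DESeq2 called 3816 genes in all, against 986, and 15 of the further pathway genes, against 5. Leaving out 1 library at a time gave 0 to 3412 calls over all genes, 0 to 4 among the members and 0 to 11 among the further pathway genes. The highest values came without day 85 replicate 2 and the zeros from fits without a day 45 library. In the fit without day 45 replicate 2, which made 0 calls in edgeR, 3056 genes had an unadjusted p under 0.05. Directions turned for 2 members near zero: the log2 ratio of DLL1 ran from -0.043 (without day 85 replicate 1) to 0.75, and that of HES1 from -0.10 to 0.034 (without day 45 replicate 3). With library totals alone 437 genes were higher and 598 lower, against 586 and 400, while the members' calls did not change.

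Libraries with the same number at both ages are not described as paired, and their deviations from the age means correlated at 0.01, 0.25 and 0.04. A fit with the replicate number as a block called 682 genes and 3 members, DLL4 (adjusted p = 0.0304), NOTCH3 (0.0361) and JAG2 (0.0428), with NOTCH4 at 0.0581; 5 further pathway genes were called, with MFAP2 in place of EGFL7. The ages did not overlap in 9 of 18 comparisons with marker lists, and in 9 to 12 when a library was left out. No share over all genes was computed for these counts. Against summed CPM of the markers the number was again 9, but not for the same members. Relative to the mural list, HES1 and NOTCH2 now overlapped between the ages, and the named NOTCH3 row and JAG2 were apart. The differences from the mural list then changed sign for DLL1 (-0.36 to 0.045) and JAG1 (-0.22 to 0.18), with overlapping ages both ways.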
